A study of Canis lupus familiaris with 29 samples.

Results

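The 3 genes of the SEZ6 family, SEZ6, SEZ6L and SEZ6L2, are described here in normal adrenal medullas and chromaffin tumors of dogs. They were taken from the count table by gene name, and they are 3 of its 30951 genes, of which 18239 have a name. The family was also selected on measured values of these samples, the SEZ6 levels of tumors and normal medullas, so its levels in tumors and normal medullas are a description without a test. Of the 3 members, 2 passed the low-count filter in both comparisons and SEZ6L did not.

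The series holds RNA sequencing libraries of tumors from 19 dogs, pheochromocytomas and paragangliomas (PPGLs), and of normal adrenal medulla from 10 other dogs (NAMs). They serve to compare tumors with normal tissue and tumors with each other. The PPGLs came from client-owned dogs and were taken at surgery or after euthanasia, and the NAMs came from healthy dogs used in other research, so the origin of the dogs and the tissue cannot be told apart. The authors divided the PPGLs into group 1, with 7 tumors, and group 2, with 12, on a principal component analysis of these same libraries, and tumors that they set aside as outliers in it were not analysed here. No treatment, genotype, breed or age is given in the labels, and all samples are bulk tissue pieces. Total counts were 19258054 to 35918182 in NAMs, 18493540 to 31919833 in PPGL group 1 and 18208718 to 24569667 in PPGL group 2.

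SEZ6 family proteins span the cell membrane once and carry CUB domains and Sushi repeats, the latter also found in complement regulators, on their extracellular part. They are mostly neuronal, act in dendrite growth, synapse formation and excitatory transmission, and are shed from the cell surface by the protease BACE1, which releases a soluble form. SEZ6 is also known as a surface antigen of neuroendocrine tumors, which include PPGLs.

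The labelled tissues were set against marker genes, as the summed CPM of each list (counts scaled to the library total after TMM normalization, which allows for library composition). Chromaffin markers, the genes of catecholamine synthesis and secretory granules, were abundant in every sample: their sum was lowest at 22208, median 35536 and highest at 105374 CPM in NAMs, and 8371, 48640 and 130058 CPM in PPGLs. CHGB, a granin of the secretory granule, was the most abundant of the 14 matched genes of 15, and none was at 0 in all samples of a group. In PPGLs 4 were called higher and 2 lower (edgeR adjusted p under 0.05), beside 22.3% higher and 15.2% lower of all tested genes. Markers of the adrenal cortex, the steroid-producing layer around the medulla, were abundant in the NAMs too, so that these pieces held cortical RNA: their sum had a median of 37407 CPM there (lowest 14127, highest 69266), with CYP17A1 the most abundant. In PPGL group 1 that sum was 97.7 to 1171 CPM (median 276, most abundant STAR) and in group 2 it was 256 to 34431 CPM (median 3688, most abundant CYP17A1), where replicate 10 lay within the NAM range. None of the 11 matched cortical genes of 12 was at 0 in all samples of a group.

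PPGL group 1 replicate 7 stood apart from the other libraries. It had the lowest summed chromaffin level (8371 CPM), a mitosis marker sum of 1588 CPM where the next highest PPGL of its group had 314 CPM, and the highest TMM factor (1.21). It also had the lowest SEZ6 and SEZ6L2 levels of all 19 PPGLs, and results that rest on it are given with and without it.

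SEZ6 (ENSCAFG00000018854; CanFam3.1 chromosome 9, 43121017 to 43165762, minus strand) is the family member known as a target of antibody-drug conjugates in neuroendocrine tumors. Its level was lowest at 2.04, median 5.76 and highest at 15.5 CPM in NAMs, from 40 to 394 counts per library. In PPGL group 1 the lowest level was 55.6, the median 315.5 and the highest 701 CPM, from 1406 to 15815 counts. In PPGL group 2 these levels were 141, 308 and 598 CPM, from 2999 to 14183 counts. Every PPGL lay above every NAM, and no library of the 29 fell between the highest NAM, replicate 10, and the lowest PPGL, group 1 replicate 7. That lowest PPGL had 3.59 times the level of the highest NAM, and the median of PPGLs was 54.8 times that of NAMs.

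The mean SEZ6 level was 6.47 ± 4.17 CPM in NAMs (SD, n = 10) and 326 ± 165 CPM in PPGLs (SD, n = 19). The fitted log2 FC (fold change) between PPGLs and NAMs was 5.65 (SE 0.44), with 5.55 (SE 0.47) for group 1 and 5.70 (SE 0.46) for group 2 in a fit of all 3 groups, which share the NAMs. SEZ6 is thus 1 of 3 members whose groups did not overlap, beside 33 of 14766 tested genes, 0.223%, with every PPGL above every NAM and 71, 0.481%, with every PPGL below; as the choice of members used this contrast, nothing is read from that count. Of the tested genes, 35, SEZ6 included, had a log2 FC at least that of SEZ6. In bulk tissue, fewer cells of a type and less RNA per cell cannot be told apart, and the part of the cortical tissue of the NAMs in the SEZ6 difference was not tested apart from 2 measurements. The difference was 5.80 with adjustment for the cortical score, the mean log2 CPM of the cortical markers, and 6.40 relative to the chromaffin score. The cortical score was 8.94 to 11.2 in NAMs and 0.04 to 9.93 in PPGLs. It nearly separated the groups, so a call lost after adjustment for it does not show why. The chromaffin score, the mean log2 CPM of the chromaffin markers, had a mean of 9.39 in NAMs and 8.65 in PPGLs. Yet those markers had a median log2 FC of 0.57, so a level relative to the score depends on the markers chosen.

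**Figure D1:**
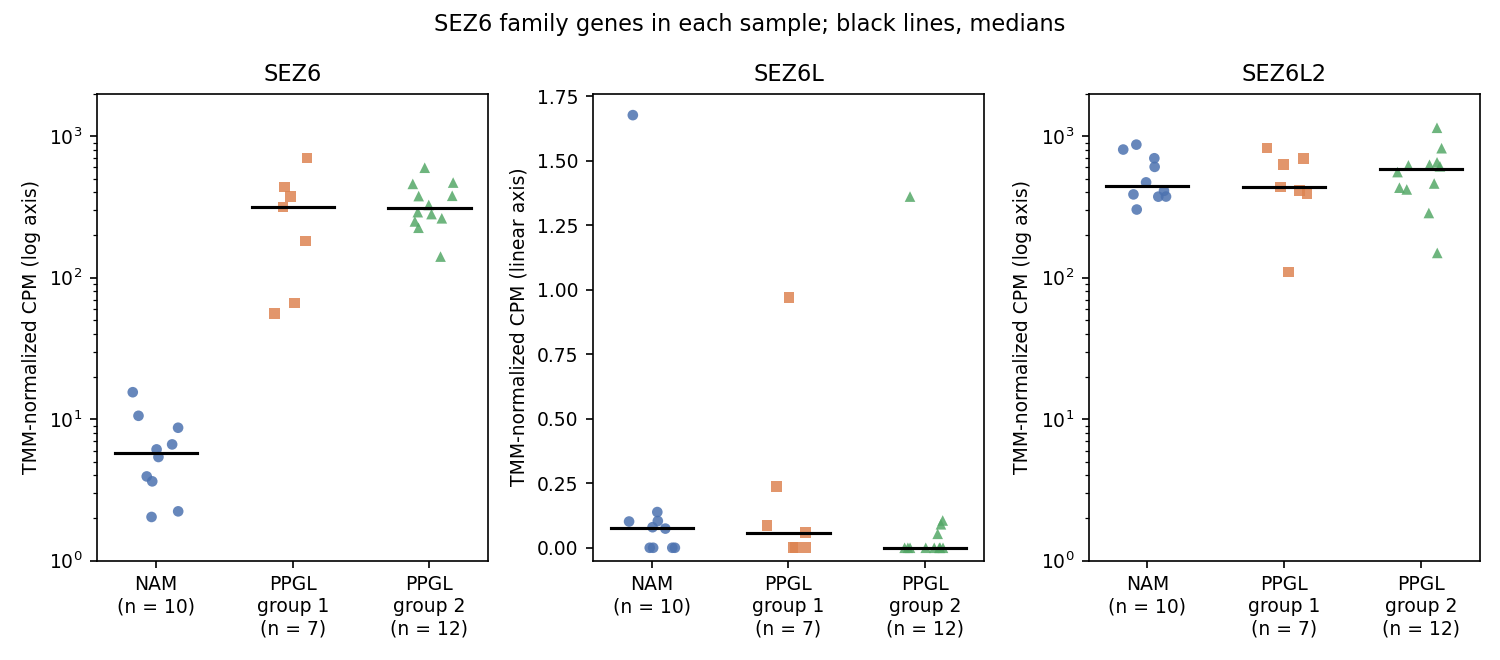
TMM-normalized CPM of SEZ6 and SEZ6L2 (log axes) and of SEZ6L (linear axis) in each sample of the 3 groups, 10 NAMs, 7 PPGLs of group 1 and 12 of group 2, with black lines at the medians. SEZ6 of NAMs reached 15.5 CPM and SEZ6 of PPGLs began at 55.6 CPM, while the SEZ6L2 levels of the 3 groups overlapped and SEZ6L stayed under 2 CPM in every sample.

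SEZ6L2 (ENSCAFG00000016991; chromosome 6, 17921311 to 17945738, minus strand), known from neurons and as a surface protein of pancreatic beta cells, was abundant in all 29 samples. Its level was lowest at 303, median 441 and highest at 871 CPM in NAMs. In PPGL group 1 the corresponding levels were 109, 437 and 824 CPM, and in PPGL group 2 they were 149, 584 and 1145 CPM. The 3 groups overlapped: 15 of 19 PPGLs lay within the NAM range, 1 above it (group 2 replicate 12) and 3 below it. The lowest levels were those of group 1 replicate 7 and group 2 replicate 10, the library with the cortical marker sum in the NAM range. The summed chromaffin level of group 2 replicate 10 was 84250 CPM, also within the NAM range, and why its SEZ6L2 level was low was not tested.

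The mean SEZ6L2 level was 530 ± 201 CPM in NAMs (SD, n = 10) and 541 ± 244 CPM in PPGLs (SD, n = 19). The log2 FC was 0.03 (SE 0.26) for all PPGLs, −0.09 (SE 0.33) for group 1 and 0.09 (SE 0.29) for group 2 against the same NAMs. The difference between PPGLs and NAMs was thus smaller than its standard error. Its sign depended on the fit: it was −0.10 in the lowest of 10 other settings and 0.68 (SE 0.32) in the highest, the level relative to the chromaffin score. That score was lower on average in PPGLs than in NAMs, and its markers include CARTPT, which the paper lists among the most lowered genes of PPGLs.

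The balance between SEZ6 and SEZ6L2 was set out per kb of exon, the scale on which levels of different genes can be compared. SEZ6L2 made up 97.9 to 99.5% of the summed family level in NAMs and SEZ6 0.460 to 2.12%, with a median of 1.11%. In PPGLs the SEZ6 share was lowest at 14.2%, median 33.7% and highest at 64.8%. The share of SEZ6 in PPGL group 1 had a median of 33.1% and that in group 2 a median of 35.6%, and neither group overlapped NAMs. The ratio of SEZ6 to SEZ6L2 was at most 0.0217 in NAMs and lay between 0.165 and 1.84 in PPGLs. SEZ6 exceeded SEZ6L2 in 4 of 19 PPGLs, namely group 1 replicate 4 and group 2 replicates 1, 6 and 10. Group 2 replicates 6 and 10 had SEZ6L2 levels below the NAM range.

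Among the tested genes ordered by level per kb, SEZ6 ranked between 9556 and 12992 in NAMs (median 11633) and between 261 and 5169 in PPGLs (median 689). SEZ6L2 ranked between 167 and 928 in NAMs (median 459) and between 135 and 2490 in PPGLs (median 331). In NAMs SEZ6L2 was thus among the abundant transcripts and SEZ6 among the rare ones, and in PPGLs both were abundant in most samples. The lowest position of both genes among PPGLs was that of group 1 replicate 7.

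**Figure D2:**
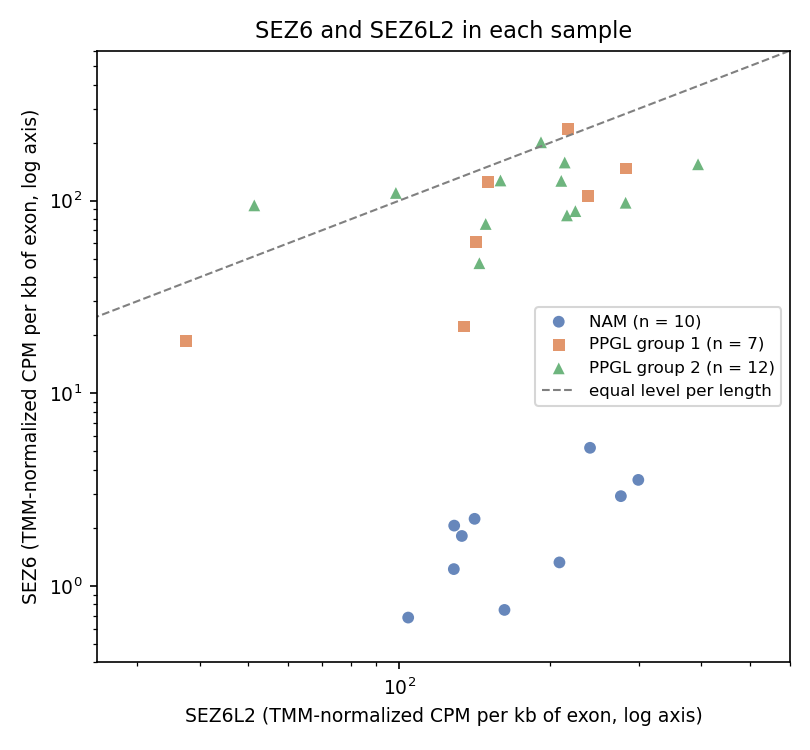
SEZ6 against SEZ6L2 in each sample (TMM-normalized CPM per kb of exon, log axes), with a dashed line where both are equal. The 10 NAMs lie far under the line, and 4 of 19 PPGLs lie above it.

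SEZ6L (ENSCAFG00000011694; chromosome 26, 19888319 to 20076021, plus strand), the family member known mainly from the brain, was at the limit of detection. It had 0 counts in 4 of 10 NAMs, 3 of 7 PPGLs of group 1 and 8 of 12 of group 2, and at most 3 counts in 7, 5 and 11 samples. Over all samples of a group it summed to 58, 40 and 34 counts. A count of 0 allows up to 3 counts per library (a one-sided limit), which in the NAMs with 0 counts corresponds to 0.114 to 0.164 CPM and in the PPGLs with 0 counts to 0.116 to 0.169 CPM. Its counts were low in all 3 groups, and a difference between them was not detectable at this depth. The main fit gave no log2 FC for it, and a fit without the low-count filter gave −0.49 (SE 0.99) for PPGLs against NAMs and 0.52 (SE 1.24) for group 1 against group 2, both smaller than their standard errors.

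In each group, 1 library carried most SEZ6L counts. NAM replicate 3 had 44 counts (1.68 CPM, 95% exact Poisson interval 1.22 to 2.25), PPGL group 1 replicate 7 had 29 counts (0.971 CPM, 0.650 to 1.39) and PPGL group 2 replicate 9 had 29 counts (1.36 CPM, 0.912 to 1.96). The next highest library, PPGL group 1 replicate 5, had 8 counts. NAM replicate 3 was also the NAM with the highest SEZ6L2 level and the highest summed chromaffin level. Intervals and floors cover counting error only.

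The comparison of PPGL group 1 with group 2 asked which genes separate the tumors within the division made by the authors, so its p-values describe that division. Neither SEZ6 nor SEZ6L2 was called: of the 2 members tested 0 had an edgeR adjusted p under 0.1, beside 1015 of 14666 tested genes, 6.92%. An unadjusted edgeR p under 0.05 was found for 0 of 2, beside 2845 of 14666 tested genes. DESeq2 and the Mann-Whitney U-test called neither. The groups overlapped for both members, where 0.0409% of tested genes had every PPGL of group 1 above every one of group 2 and 0.143% below. The log2 FC of group 1 against group 2 was −0.15 (SE 0.39, edgeR adjusted p = 0.876) for SEZ6 and −0.17 (SE 0.35, edgeR adjusted p = 0.832) for SEZ6L2. These values do not show that the groups had equal levels, as SEZ6 ranged 12.6-fold within group 1 and 4.24-fold within group 2.

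Of the 7 PPGLs of group 1, 4 lay within the SEZ6 range of group 2, 1 above it and 2 below it, and for SEZ6L2 6 lay within it and 1 below. The low end of group 1 was set by a few libraries. Without group 1 replicate 7, group 1 ranged from 66.1 to 701 CPM for SEZ6 (median 344) and from 391 to 824 CPM for SEZ6L2 (median 534). The log2 FC then was 0.04 for SEZ6 (edgeR adjusted p = 0.974) and 0.01 for SEZ6L2 (edgeR adjusted p = 0.994). Without group 1 replicate 2 that of SEZ6 was 0.03 (edgeR adjusted p = 0.977). Adrenal cortex markers moved with this division, as 10 of 11 tested were called lower in group 1, and their part in the result was not tested beyond the fit adjusted for the cortical score, where the log2 FC of SEZ6 was 0.21 (edgeR adjusted p = 0.960) and that of SEZ6L2 −0.51 (edgeR adjusted p = 0.877). The lowest SEZ6 value was −0.65 (edgeR adjusted p = 0.714), with a block on replicate numbers, which did not pair the samples. Relative to the chromaffin score both members changed sign, to 0.68 (SE 0.76) for SEZ6 and 0.98 (SE 0.77) for SEZ6L2. That score had a mean of 7.88 in group 1 and 9.09 in group 2, while its markers had a median log2 FC of 0.14, with 0 called. A level relative to it thus depends on the markers chosen.

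SEZ6L2 followed the chromaffin content of the NAMs. Across the 10 NAMs its log2 level and the chromaffin score had a Pearson r of 0.95 (permutation p = 2.00e-05, adjusted p = 0.000160) and a Spearman rho of 0.93 (permutation p = 0.000370, adjusted p = 0.00296). The cortical score ran the other way, with r = −0.84 (permutation p = 0.00270, adjusted p = 0.0108) and rho = −0.81 (permutation p = 0.00736, adjusted p = 0.0294). Without the 2 samples farthest from the median score, r was 0.94 (exact permutation p = 0.000893, adjusted p = 0.00714) for the chromaffin score and −0.87 (exact permutation p = 0.00667, adjusted p = 0.0267) for the cortical score, while the rho values of 0.86 (exact permutation p = 0.0107, adjusted p = 0.0857) and −0.81 (exact permutation p = 0.0218, adjusted p = 0.0871) did not pass adjustment. NAMs with more chromaffin RNA and less cortical RNA had more SEZ6L2. These are 2 of 8 relations of SEZ6 and SEZ6L2 with both scores in NAMs and in PPGLs, which were added after the values were seen, with p-values adjusted over the 8.

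SEZ6 in NAMs had r = 0.67 with the chromaffin score (permutation p = 0.0381, adjusted p = 0.101, rho = 0.66, permutation p = 0.0446, adjusted p = 0.119) and r = −0.52 with the cortical score (permutation p = 0.120, adjusted p = 0.191, rho = −0.56, permutation p = 0.0957, adjusted p = 0.191), neither past adjustment. Without the 2 samples farthest from the median score, these were r = 0.57 (adjusted permutation p = 0.314, rho = 0.40, adjusted permutation p = 0.436) and r = −0.80 (adjusted permutation p = 0.0449), where rho was −0.76 and did not pass (adjusted permutation p = 0.0980). In PPGLs none of the 4 relations passed adjustment: r was 0.38 for SEZ6 and 0.25 for SEZ6L2 with the chromaffin score (adjusted permutation p = 0.191 and 0.337), and 0.33 and 0.04 with the cortical score (adjusted permutation p = 0.233 and 0.870). The corresponding rho values were 0.34, 0.30, 0.20 and 0.05 (adjusted permutation p = 0.252, 0.281, 0.479 and 0.824). Within group 1 and within group 2 no r passed adjustment either. Whether the relations differ between NAMs and PPGLs was not tested.

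**Figure D3:**
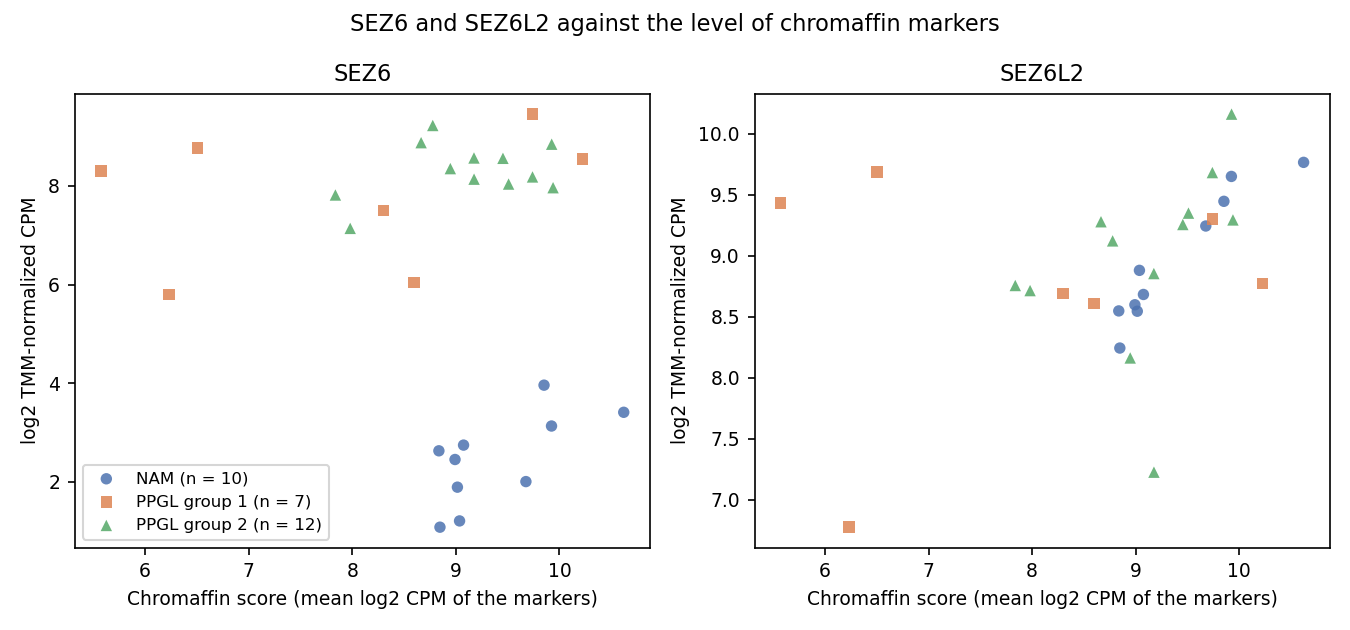
Level of SEZ6 and of SEZ6L2 (log2 TMM-normalized CPM) against the chromaffin score (mean log2 CPM of the chromaffin markers) in each sample. Across the 10 NAMs SEZ6L2 rises with the score (r = 0.95), and all SEZ6 levels of PPGLs lie above those of all NAMs.

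Within the 19 PPGLs, the 3 pairs of family members were correlated on log2 CPM with permutation tests, with p-values adjusted over the 3 pairs. SEZ6 and SEZ6L2 were positively related, with r = 0.59 (permutation p = 0.00953, adjusted p = 0.0143) and rho = 0.55 (permutation p = 0.0146, adjusted p = 0.0218). The relation rests on group 1 replicate 7, without which r was 0.36 (adjusted permutation p = 0.218) and rho 0.48 (adjusted permutation p = 0.0715). Without group 1 replicate 2 alone r was 0.65 (adjusted permutation p = 0.0112) and rho 0.51 (adjusted permutation p = 0.0503), and without both, the PPGLs farthest from the median SEZ6 level, r was 0.35 (permutation p = 0.173, adjusted p = 0.260). Within group 1 r was 0.79 (exact permutation p = 0.0119, adjusted p = 0.0357, n = 7) and within group 2 it was 0.30 (permutation p = 0.346, adjusted p = 0.519, n = 12). The rho within group 1 was 0.82 and did not pass (adjusted permutation p = 0.102). Both values of group 1 include replicate 7, its lowest library for SEZ6 and SEZ6L2.

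For SEZ6 and SEZ6L the values are given as a description, since SEZ6L counts of 0 to 29 are too sparse for a pattern, with r = −0.61 (permutation p = 0.00938, adjusted p = 0.0143) and rho = −0.65 (permutation p = 0.00331, adjusted p = 0.00993). Without the 2 PPGLs farthest from the median SEZ6 level r was −0.71 (adjusted permutation p = 0.00186), and without group 1 replicate 7 it was −0.41 (adjusted permutation p = 0.218, rho = −0.59, adjusted permutation p = 0.0345). Within group 1 r was −0.52 (exact permutation p = 0.219, adjusted p = 0.219, n = 7) and within group 2 it was −0.81 (permutation p = 0.000190, adjusted p = 0.000570, n = 12). Of the 19 PPGLs 11 had no SEZ6L count, so most of its levels were tied, and 2 libraries had 29 counts each. SEZ6L and SEZ6L2 had r = −0.40 (permutation p = 0.0889, adjusted p = 0.0889) and rho = −0.22 (permutation p = 0.353, adjusted p = 0.353), which did not pass. Without the 2 PPGLs farthest from the median SEZ6L level that r was 0.06, and without group 2 replicate 10 it was −0.55 (adjusted permutation p = 0.0309). Within group 1 it was −0.76 (exact permutation p = 0.0774, adjusted p = 0.116, n = 7) and within group 2 −0.08 (permutation p = 0.752, adjusted p = 0.752, n = 12).

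The proteases that shed or degrade family members were described from a list of 10 secretase, ADAM and cathepsin genes, all tested. Between PPGLs and NAMs 1 was called higher and 2 lower at an edgeR adjusted p under 0.05, beside 3295 higher (22.3%) and 2246 lower (15.2%) of 14766 tested genes, and the list had a median log2 FC of 0.03 where all tested genes had 0.13. With the cortical score 1 was called higher and 1 lower, and by the Mann-Whitney U-test 1 higher and 3 lower. Among gamma-secretase subunits, PSENEN rose from 89.4 ± 11.4 to 122 ± 25.3 CPM (log2 FC 0.45, SE 0.12, edgeR adjusted p = 0.00350, with 14 of 19 PPGLs above all NAMs). APH1A fell from 194 ± 34.4 to 101 ± 33.1 CPM (log2 FC −0.94, SE 0.16, edgeR adjusted p = 5.73e-05, with 13 of 19 PPGLs below all NAMs). The sheddase ADAM10 fell from 93.1 ± 12.9 to 65.6 ± 20.7 CPM (log2 FC −0.50, SE 0.15, edgeR adjusted p = 0.00999, with 14 of 19 PPGLs below all NAMs), a call lost after adjustment for the cortical score (log2 FC −0.38, adjusted p = 0.270). BACE1, named for its role after its values were seen, had mean levels of 118 CPM in NAMs, 120 CPM in PPGL group 1 and 112 CPM in group 2. Here and below values are mean ± SD, n = 19 PPGLs and n = 10 NAMs.

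Among 11 tested genes of 12 other BACE1 substrates, 1 was called higher and 2 lower, with a median log2 FC of 0.31, while the Mann-Whitney U-test called 1 higher and 4 lower and the fit with the cortical score 0 higher and 1 lower. The amyloid precursor relative APLP1 rose from 626 ± 201 to 1013 ± 466 CPM (log2 FC 0.70, SE 0.26, edgeR adjusted p = 0.0314, with 10 of 19 PPGLs above all NAMs and 1 below). That call was lost when NAM replicate 1, 2, 6, 7, 8 or 9 was left out (edgeR adjusted p up to 0.0614) and after adjustment for the cortical score (log2 FC 0.42, adjusted p = 0.451). PLXDC2 fell from 81.6 ± 15.4 to 23.5 ± 27.9 CPM (log2 FC −1.80, SE 0.37, edgeR adjusted p = 0.000420, with 18 of 19 PPGLs below all NAMs and 1 above, and log2 FC −0.98, adjusted p = 0.254 after adjustment for the cortical score). APLP2 was called lower (log2 FC −0.39, SE 0.16, edgeR adjusted p = 0.0470, with 12 of 19 PPGLs below all NAMs and 2 above), a call lost when any of 20 of the 29 samples was left out, with the library size only, with a filter at 1 CPM and with the cortical score (log2 FC −0.33).

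The relatives of the family with CUB domains or Sushi repeats gave no call in the main fit: 0 of 7 tested, from 13 listed and 11 matched, were called by edgeR in either direction, with a median log2 FC of 0.55. In other settings 2 of the 7 were called higher by DESeq2 and by edgeR with library size only, 1 higher by the Mann-Whitney U-test, 1 lower with a replicate block, and without a low-count filter 3 of 11 higher. SUSD1 had 38.9 ± 7.89 CPM in NAMs and 63.3 ± 32.7 CPM in PPGLs (log2 FC 0.70, SE 0.29, edgeR adjusted p = 0.0544), with 11 of 19 PPGLs above all NAMs and 3 below. It was called with library size only (edgeR adjusted p = 0.0343), by DESeq2 (adjusted p = 0.0409) and when any of 6 PPGLs was left out (edgeR adjusted p down to 0.0111). SUSD6 had a log2 FC of 0.10 (SE 0.16, edgeR adjusted p = 0.657). Among ionotropic glutamate receptors, the class of synaptic channels on which some family members act in neurons, 1 of 8 tested was called higher and 1 lower, with a median log2 FC of −0.19, while the Mann-Whitney U-test called 1 higher and 4 lower and the fit with the cortical score 1 higher and 0 lower. The kainate receptor subunit GRIK3 rose from 0.548 ± 0.696 to 18.3 ± 29.5 CPM (log2 FC 5.04, SE 1.13, edgeR adjusted p = 0.000947), with 9 of 19 PPGLs above all NAMs and 1 below. The AMPA receptor subunit GRIA1 fell from 9.11 ± 4.59 to 2.58 ± 2.86 CPM (log2 FC −1.82, SE 0.56, edgeR adjusted p = 0.0119, with 11 of 19 PPGLs below all NAMs), and after adjustment for the cortical score the call was lost and the log2 FC was −2.24 (adjusted p = 0.0844).

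Complement and its regulators, some of which carry Sushi repeats like the family, had 0 of 14 tested genes called in the main fit between PPGLs and NAMs, with a median log2 FC of −0.25. DESeq2 called 2 lower, edgeR 3 lower with all 3 groups in the fit or with a replicate block, and the Mann-Whitney U-test 1 higher and 3 lower. C1QC, a subunit of the complement starter C1q, had 252 ± 92.0 CPM in NAMs and 210 ± 183 CPM in PPGLs (log2 FC −0.26, SE 0.35, edgeR adjusted p = 0.583). CD59, which blocks the membrane attack complex, had 247 ± 58.3 and 180 ± 121 CPM (log2 FC −0.46, SE 0.30, edgeR adjusted p = 0.240). Leukocyte markers summed to a median of 167 CPM in NAMs and 94.2 CPM in PPGLs, with CSF1R the most abundant of 10 matched genes, yet the 7 tested ones had a median log2 FC of 0.51, with 2 called higher and 1 lower.

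SEZ6 was set beside other surface antigens of neuroendocrine tumors, of which 4 of 8 tested were called higher and 0 lower in PPGLs, with a median log2 FC of 1.19. Of all tested genes 22.3% were called higher and 15.2% lower. Among the 8, the Mann-Whitney U-test called 2 higher and 1 lower, the fit with the cortical score 1 higher and 1 lower and that with a replicate block 1 higher. The receptor tyrosine kinase ALK rose from 2.87 ± 3.30 to 41.0 ± 109 CPM (log2 FC 3.83, SE 1.14, edgeR adjusted p = 0.00891, with 7 of 19 PPGLs above all NAMs), and its log2 FC was 2.52 without PPGL group 1 replicate 7. The glypican GPC3 rose from 6.15 ± 2.12 to 69.0 ± 104 CPM (log2 FC 3.49, SE 1.00, edgeR adjusted p = 0.00680), with 12 of 19 PPGLs above all NAMs and 4 below. The B7 family protein CD276 rose from 8.93 ± 3.25 to 22.8 ± 14.0 CPM (log2 FC 1.35, SE 0.29, edgeR adjusted p = 0.000563, with 12 of 19 PPGLs above all NAMs). All 3 calls were lost after adjustment for the cortical score (log2 FC 2.02, 2.60 and 0.86, adjusted p = 0.242, 0.230 and 0.115). Those of ALK and GPC3 were also lost with the Mann-Whitney U-test and with a replicate block (log2 FC of GPC3 2.14). That block is an arbitrary division, as replicate numbers did not pair the samples.

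Regulators of neuroendocrine and neural crest identity had 7 of 11 tested genes called higher and 0 lower, beside 22.3% and 15.2% of all tested genes. Their median log2 FC was 1.76. After adjustment for the cortical score 4 were called higher and 1 lower, with a median of 0.48, with a replicate block 6 higher and 1 lower, and by the Mann-Whitney U-test 5 higher. HAND1, a transcription factor of sympathetic precursors, rose from 14.0 ± 7.82 to 148 ± 196 CPM (log2 FC 3.40, SE 0.97, edgeR adjusted p = 0.00667), yet 12 of 19 PPGLs were above all NAMs and 7 below all. Its call was lost with the Mann-Whitney U-test, with a replicate block (log2 FC 1.40) and after adjustment for the cortical score (log2 FC 3.44, adjusted p = 0.0601). The zinc finger gene INSM2 rose from 5.77 ± 3.55 to 52.1 ± 49.8 CPM (log2 FC 3.17, SE 0.68, edgeR adjusted p = 0.000669, with 13 of 19 PPGLs above all NAMs). Over all 68 tested genes of the 7 lists, 14 were called higher and 5 lower, 27.9%, beside 37.5% of all tested genes. Cortical markers moved with this comparison, with 10 of 11 called lower in PPGLs, and after adjustment for their score 2005 of all tested genes were called in place of 5541. As that score nearly separated PPGLs from NAMs, calls lost in this fit are not a test of cortical content.

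Between PPGL group 1 and group 2 the same lists gave 5 genes called higher and 5 lower of 69 tested at an edgeR adjusted p under 0.1, beside 3.97% higher and 2.95% lower of 14666 tested genes. The proteases and the CUB and Sushi relatives had 0 of 10 and 0 of 7 called, with median log2 FCs of −0.01 and −0.13 where all genes had 0.04. Of these relatives 1 was called higher and 1 lower by DESeq2 and with all 3 groups in the fit, and 1 of 11 lower without a low-count filter. Of the abundant proteases, NCSTN, the gamma-secretase subunit nicastrin, had 313 ± 101 CPM in group 1 and 314 ± 70.2 CPM in group 2 (log2 FC −0.01, SE 0.19, edgeR adjusted p = 0.993), and CTSD, cathepsin D, had 325 ± 138 and 328 ± 342 CPM (log2 FC −0.02, SE 0.42, edgeR adjusted p = 0.984). SUSD1 had a log2 FC of −0.65 (SE 0.40, edgeR adjusted p = 0.387) and SUSD6 one of −0.13 (SE 0.23, edgeR adjusted p = 0.794). Here values are mean ± SD with n = 7 and n = 12.

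Complement genes had 4 of 14 tested called lower in group 1, 0 higher, and a median log2 FC of −1.07, while DESeq2 called 6 lower, the Mann-Whitney U-test 3 and the fit with a replicate block 0. CD55, which speeds the decay of complement convertases, fell to 13.1 ± 14.6 CPM in group 1 from 120 ± 126 CPM in group 2 (log2 FC −3.17, SE 0.86, edgeR adjusted p = 0.0462, or 0.102 without group 1 replicate 7, with 4 of 7 below all of group 2). C7, a part of the membrane attack complex, fell to 7.28 ± 4.87 from 63.2 ± 85.1 CPM (log2 FC −3.12, SE 0.71, edgeR adjusted p = 0.0243, with 2 of 7 below all of group 2). The anaphylatoxin receptor C5AR1 was called lower (log2 FC −2.35, SE 0.74, edgeR adjusted p = 0.0850), with 0 of 7 below all of group 2. Its call was lost when any of 9 of the 19 PPGLs was left out, and without group 2 replicate 11 its log2 FC was −1.29. That library had the highest leukocyte (697 CPM) and fibroblast (25463 CPM) marker sums of all PPGLs. Over the whole comparison the tested fibroblast markers had a median log2 FC of −2.08 and the leukocyte markers one of −1.12, with 0 called in either list, and their part in the result was not tested.

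Of the other lists in this comparison, 1 of 11 tested BACE1 substrates was called higher (median log2 FC 0.52), as were 1 of 8 glutamate receptors (median −0.11), 1 of 9 surface antigens (median 0.63) and 2 of 11 regulators (median 0.56). Of these lists only the regulators also held a gene called lower, 1 of 11. The adhesion molecule NCAM1 rose to 186 ± 81.9 CPM in group 1 from 56.7 ± 21.4 CPM in group 2 (log2 FC 1.71, SE 0.27, edgeR adjusted p = 0.00541, with 6 of 7 above all of group 2). ISL1, a transcription factor of sympathetic neurons, rose to 178 ± 131 from 5.56 ± 11.1 CPM (log2 FC 5.02, SE 1.15, edgeR adjusted p = 0.0244, with 6 of 7 above all of group 2). HAND2 rose to 380 ± 152 from 188 ± 94.5 CPM (log2 FC 1.02, SE 0.30, edgeR adjusted p = 0.0638, with 3 of 7 above all of group 2), a call lost without group 1 replicate 3, 4 or 7 (edgeR adjusted p up to 0.146).

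The neuregulin NRG3 was called higher in group 1 (log2 FC 2.77, SE 0.82, edgeR adjusted p = 0.0661, or 0.154 without group 1 replicate 5), with 4 of 7 above all of group 2. The AMPA receptor subunit GRIA3 was called higher (log2 FC 2.18, SE 0.71, edgeR adjusted p = 0.0929, with 3 of 7 above all of group 2), a call lost when any of 14 of the 19 PPGLs was left out (edgeR adjusted p up to 0.207) and without a low-count filter (adjusted p = 0.102). The Mann-Whitney U-test did not call NRG3, GRIA3, C5AR1 or HAND2. The cortical score was 0.04 to 3.79 in group 1 and 3.08 to 9.93 in group 2, so it can hardly be told apart from the division. After adjustment for it 0 genes of all tested were called by edgeR in this comparison in place of 1015, and DESeq2 without it called 1793. The log2 FCs then were larger for CD55 (−3.73), C7 (−4.05), C5AR1 (−4.37) and GRIA3 (3.82) and smaller for NCAM1 (0.47), ISL1 (3.09), HAND2 (0.62) and NRG3 (1.53). Without group 1 replicate 7, 525 genes were called, and without group 2 replicate 4, 674.

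The chromosomal neighbours of the members were the 3 nearest genes on each side, overlapping genes included, 18 in all. Of the 16 tested, 6 were called in PPGLs against NAMs and 1 in group 1 against group 2, beside 37.5% and 6.92% of all tested genes. Beside SEZ6, the transcriptional repressor PHF12, 4709 bases away, rose from 39.2 ± 7.02 to 69.0 ± 13.1 CPM (log2 FC 0.82, SE 0.12, edgeR adjusted p = 6.47e-06, with 18 of 19 PPGLs above all NAMs), and its rho with SEZ6 over the PPGLs was 0.62. PIPOX, a peroxisomal oxidase gene 34608 bases away, rose from 11.4 ± 8.84 to 28.0 ± 20.5 CPM (log2 FC 1.30, SE 0.44, edgeR adjusted p = 0.0200, with 8 of 19 PPGLs above all NAMs and 1 below), a call lost after adjustment for the cortical score (adjusted p = 0.0541), where the log2 FC was 1.71. DHRS13 (log2 FC −0.29, SE 0.12, edgeR adjusted p = 0.0563), MYO18A (0.12, SE 0.17, edgeR adjusted p = 0.604) and an unnamed gene, ENSCAFG00000046724 (0.28, SE 0.19, edgeR adjusted p = 0.256), were not called, and the microRNA gene cfa-mir-144 had 0 counts in every sample. The SEZ6 difference of 5.65 was thus not shared in size by any of the 5 tested neighbours.

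Beside SEZ6L2, KCTD13, an adaptor of a ubiquitin ligase 323 bases away, rose from 10.0 ± 1.74 to 16.1 ± 6.92 CPM (log2 FC 0.68, SE 0.22, edgeR adjusted p = 0.0141, with 14 of 19 PPGLs above all NAMs and 1 below, and log2 FC 0.65, adjusted p = 0.155 after adjustment for the cortical score). ASPHD1 overlaps SEZ6L2 on the opposite strand with 0 shared exon bases and was not called (log2 FC 0.33, SE 0.26, edgeR adjusted p = 0.344). MVP, CDIPT, TAOK2 and an unnamed gene, ENSCAFG00000043188, were not called either, with log2 FCs of 0.26, 0.29, 0.07 and 0.62 and edgeR adjusted p of 0.235, 0.257, 0.708 and 0.138. CDIPT, a phosphatidylinositol synthase gene 6657 bases away, had a rho of 0.80 with SEZ6L2 over the 19 PPGLs.

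Beside SEZ6L, HPS4 overlaps the gene on the opposite strand with 0 shared exon bases and was not called (log2 FC −0.26, SE 0.21, edgeR adjusted p = 0.350), with 15 of 19 PPGLs below all NAMs and 3 above. TFIP11, a splicing factor gene, fell from 54.9 ± 11.4 to 32.3 ± 14.8 CPM (log2 FC −0.77, SE 0.18, edgeR adjusted p = 0.00136), with 18 of 19 PPGLs below all NAMs and 1, group 1 replicate 7, above them. The receptor kinase GRK3 rose from 89.6 ± 20.3 to 146 ± 91.2 CPM (log2 FC 0.71, SE 0.24, edgeR adjusted p = 0.0219, or log2 FC 0.45, adjusted p = 0.370 after adjustment for the cortical score), with 7 of 19 PPGLs above all NAMs and 1 below. MYO18B was called higher in PPGLs (log2 FC 5.83, SE 1.58, edgeR adjusted p = 0.00466, with 5 of 19 PPGLs above all NAMs and 2 below) and in group 1 against group 2 (log2 FC 4.78, SE 1.30, edgeR adjusted p = 0.0479), and the size of both rests on group 1 replicate 7, at 308 CPM where the next highest sample had 5.34. Without that library the log2 FCs were 2.16, still called (edgeR adjusted p = 0.0266), and −0.74, not called (edgeR adjusted p = 0.743). With all samples, the difference between PPGLs and NAMs was not called after adjustment for the cortical score (log2 FC 1.39, adjusted p = 0.474). ASPHD2 (log2 FC 1.43, SE 0.69, edgeR adjusted p = 0.103) was not called, and an unnamed gene, ENSCAFG00000047877, had at most 8 counts.

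The genes most alike in pattern were ranked by Spearman rho of log2 CPM over the 19 PPGLs among 12809 named genes (12810 for SEZ6L), as a description. For SEZ6 they were TRUB1 (0.85), a pseudouridine synthase gene, TRIM62 (0.82), HID1 (0.81), BTBD6 (0.80) and B4GALT3 (0.80). HID1, needed for dense core granules, rose from 83.9 ± 32.6 to 173 ± 70.8 CPM (log2 FC 1.04, SE 0.23, edgeR adjusted p = 0.000830, with 11 of 19 PPGLs above all NAMs), and with the cortical score its log2 FC was 0.89 and the call was lost (adjusted p = 0.0541). TRIM62, a ubiquitin ligase gene, rose from 12.0 ± 2.15 to 26.5 ± 11.3 CPM (log2 FC 1.14, SE 0.23, edgeR adjusted p = 0.000403, with 15 of 19 PPGLs above all NAMs and 1 below). TRUB1, BTBD6 and B4GALT3 were not called between PPGLs and NAMs, with log2 FCs of 0.33, −0.18 and −0.10 (edgeR adjusted p = 0.107, 0.432 and 0.583), so none of the 5 shared the size of the SEZ6 difference.

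For SEZ6L2 the genes most alike were CACNA1G (0.87), NCSTN (0.86), P4HTM (0.86), TRIM62 (0.83) and SLC22A17 (0.81). CACNA1G, which encodes a T-type calcium channel, rose from 20.8 ± 14.3 to 308 ± 192 CPM (log2 FC 3.89, SE 0.60, edgeR adjusted p = 1.68e-05, with 17 of 19 PPGLs above all NAMs and 1 below), where SEZ6L2 had a log2 FC of 0.03, and its rho with SEZ6L2 in the 10 NAMs was 0.93. NCSTN, nicastrin, is the gamma-secretase subunit of the protease list, and its rho with SEZ6L2 was 0.88 in the NAMs. NCSTN, P4HTM and SLC22A17 were not called, with log2 FCs of 0.25, 0.30 and 0.28 (edgeR adjusted p = 0.161, 0.277 and 0.363). For SEZ6L, at counts too sparse for a pattern, the list was led by PLPP7 (0.79), HDC (0.73), SH2D2A (0.71), SLC30A4 (0.70) and PLEKHG5 (0.69), of which PLPP7 was called higher in PPGLs (log2 FC 1.05, SE 0.32, edgeR adjusted p = 0.0105, or log2 FC 0.78, adjusted p = 0.249 after adjustment for the cortical score), with 13 of 19 PPGLs above all NAMs and 2 below.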

How the data were processed

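Poly(A) RNA of 29 canine samples had been sequenced from stranded libraries, and the authors deposited raw counts of reads in exons per gene on CanFam3.1. FastQC, STAR, Picard and HTSeq are named in the submitters' processing notes, and the strand setting and the treatment of reads that map to several places are not given in the sources used here. Samples were grouped by their labels into NAMs and PPGLs of group 1 or 2. The 3 members, the 7 pathway lists and the 8 marker lists were chosen with earlier results of these data known.

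Counts were filtered with filterByExpr (minimum count 10, minimum total 15), normalized by TMM and tested by edgeR 4.0.16 (R 4.3.3, limma 3.58.1) with the quasi-likelihood F test and a prior count of 0.125. P-values were adjusted by Benjamini-Hochberg over all genes tested, with calls under 0.05 for PPGLs against NAMs and under 0.1 for group 1 against group 2. Correlations used log2 CPM with a prior count of 2 and two-sided permutation tests (100000 resamples, all orders where n was under 9) in scipy 1.17.1 (Python 3.11.15, numpy 2.4.6, pandas 2.3.3), and figures used matplotlib 3.10.9. Levels per length used the exon length of the count table, 2977 bases for SEZ6, 4101 for SEZ6L and 2907 for SEZ6L2. The floor was 3 counts, at 18208718 to 35918182 total counts per library. The fits were tested on simulated counts.

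The genes named are the members; in each pathway list and comparison up to 3 called higher and up to 3 called lower with the largest absolute log2 FC, or, with none called, the 2 with the highest mean CPM; the 3 nearest genes on each side of each member and any overlapping it; and the 5 named genes most alike to each member over the 19 PPGLs. Some list genes that met these rules are not reported here, and the counts over whole lists include them. Pathway lists were proteases of the family, other BACE1 substrates, CUB and Sushi relatives, ionotropic glutamate receptors, complement, surface antigens and regulators. Alternatives were DESeq2 size factors, library size only, no filter, a filter at 1 CPM, a prior count of 2, the fit of all 3 groups, DESeq2 1.42.0, the Mann-Whitney U-test, a replicate block, adjustment for the cortical score, levels relative to the chromaffin score and each sample left out in turn.

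The marker lists not described elsewhere gave these summed levels. Neuron markers (10 matched of 11) had a median of 993 CPM in NAMs, 1066 CPM in PPGL group 1 and 526 CPM in group 2, led by NEFM, STMN2 and SNAP25, with 4 called higher and 2 lower in PPGLs. Schwann and sustentacular cell markers (8 of 8) had medians of 142, 58.0 and 91.0 CPM, led by CDH19 in NAMs, with none called. Endothelium markers (8 of 8) had medians of 833, 661 and 618 CPM, with 4 called lower in PPGLs. Leukocyte markers (10 of 11) had medians of 167, 116 and 93.5 CPM, with 2 called higher and 1 lower. Fibroblast markers (7 of 7) had medians of 448, 564 and 990 CPM, with 4 called higher. Mitosis markers (9 of 10) had medians of 36.9, 168 and 81.6 CPM, with 8 called higher in PPGLs and 7 higher in group 1. No chromaffin, neuron, Schwann, endothelium, leukocyte or fibroblast marker was called between the PPGL groups by edgeR. Of all tested genes, 22.3% were called higher and 15.2% lower in PPGLs, and 3.97% higher and 2.95% lower in group 1.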

Additional observations from a re-analysis of the deposited data

Results flagged for a closer look

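In 30 checks of the highest and lowest sample of the NAMs and of PPGL group 1, over 15 measures, 5 values stood far from the nearest other sample of their group. The limit used gives about 1 in 20 by chance for normally distributed values. Levels and shares of SEZ6L, with many counts of 0, are not distributed so, and the number of flags is not read against that rate. PPGL group 2, with 12 samples, was not checked. The SEZ6L level of NAM replicate 3 was 1.68 CPM, where the next highest NAM had 0.138 CPM. The SEZ6L level of PPGL group 1 replicate 7 was 0.971 CPM, where the next highest PPGL of group 1 had 0.238 CPM. The SEZ6L share of the summed family level per kb was 0.135% in NAM replicate 3, where the next highest NAM had 0.0260%, and 0.419% in PPGL group 1 replicate 7, where the next highest had 0.0169%. These 4 values describe the same 2 libraries, since the share contains the level. The mitosis marker sum of PPGL group 1 replicate 7 was 1588 CPM, where the next highest of group 1 had 314 CPM. Why these libraries stood apart was not tested.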

How the results depend on the processing

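The log2 FC of SEZ6 between PPGLs and NAMs kept its direction under all 10 other settings (5.62 to 6.40) and with each of the 29 samples left out (5.54 to 5.89), and that of SEZ6L2 (0.03) changed sign (−0.10 to 0.68, and −0.06 to 0.14), with 0.68 (SE 0.32) relative to the chromaffin score. SEZ6L failed the low-count filter and had no log2 FC in the main fit. An unfiltered fit put SEZ6L at −0.49 (SE 0.99) between PPGLs and NAMs and at 0.52 (SE 1.24) between the PPGL groups. Correlations with the scores, counts of list genes, and list genes, neighbours and most alike genes under each alternative, were added after seeing the data. The cause of the changes below was not tested.

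Genes called between PPGLs and NAMs numbered 5541, and 2005 after adjustment for the cortical score (list genes 19 and 11). Between the PPGL groups 1015 were called, and 0 with the cortical score, 2567 with all 3 groups in the fit, 1793 with DESeq2 and 386 with the Mann-Whitney U-test, and 525 to 1218 with each PPGL left out (525 without group 1 replicate 7, 674 without group 2 replicate 4). List genes called there were 10, and 0 with the cortical score, 20 with all 3 groups and 19 with DESeq2. In this comparison SEZ6 (−0.15) was at 0.21 with the cortical score, −0.65 with a replicate block, 0.68 relative to the chromaffin score and −0.50 to 0.0377 with each PPGL left out, and SEZ6L2 (−0.17) at −0.51 with the cortical score, −0.37 with a replicate block, 0.98 relative to the chromaffin score and −0.33 to 0.00716. CTSD (−0.02) was at −0.84 with the cortical score, 0.0332 with library size only and −0.14 to 0.49 with each PPGL left out, NCSTN (−0.01) at −0.11, 0.0304 and −0.14 to 0.0875, and MYO18B (4.78) at −0.72 with DESeq2 and −0.74 to 5.13. CD59 between PPGLs and NAMs (−0.46) was at 0.18 with the cortical score.

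The r of SEZ6 and SEZ6L across PPGLs (−0.61) was −0.52 within group 1 and −0.81 to −0.41 with each PPGL left out. That of SEZ6 and SEZ6L2 (0.59) was 0.35 without the 2 farthest PPGLs, 0.30 within group 2 and 0.36 to 0.69 with each left out. That of SEZ6L and SEZ6L2 (−0.40) was 0.0612 without the 2 farthest and −0.55 to −0.0634 with each left out. The r of SEZ6L2 with the cortical score (0.04) was −0.37 within group 2.

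Replicate numbers did not pair the samples: of 24 same-numbered pairs between groups 2 had a correlation of their deviations over 0.1 (range −0.23 to 0.25). A sample with no same-numbered sample on the other side of a comparison adds nothing to the blocked fit, so nothing is read from calls lost there. With a replicate block 47 genes (list genes 0) were called between the PPGL groups, at 37 lower and 10 higher, and 4653 between PPGLs and NAMs, 48.9% of them higher in place of 59.5%. CTSD was then at 0.54, MYO18B between the PPGL groups at −0.0355 and SUSD6 between PPGLs and NAMs, 0.10 without the block, at −0.00848. With library size only the median log2 FC of all genes between PPGLs and NAMs moved from 0.13 to 0.20. Of the members only SEZ6L, at 0 to 44 counts, failed the low-count filter, and of 77 matched list genes 68 passed it between PPGLs and NAMs. SUSD1 between PPGLs and NAMs, not called in the main fit (adjusted p = 0.0544), was called with library size only (0.0343) and DESeq2 (0.0409).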

Other observations

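All 5 tested neighbours of SEZ6L on chromosome 26 had their highest level of the 29 samples in PPGL group 1 replicate 7, the library with 29 SEZ6L counts. GRK3 was at 477 CPM there, where the next highest sample had 220 CPM, and MYO18B, a myosin gene, was at 308 CPM, where the next highest had 5.34 CPM. HPS4, which overlaps SEZ6L on the opposite strand, was at 108 CPM against 61.0 CPM, ASPHD2 at 7.06 CPM against 4.74 CPM and TFIP11 at 86.6 CPM against 82.9 CPM. None of the 5 tested neighbours of SEZ6 or the 6 of SEZ6L2 was highest in that library. Of 363 tested genes of chromosome 26, 143 (39.4%) had their highest level there, the largest share of the 40 chromosomes with at least 20 tested genes, beside 2470 of 14766 tested genes (16.7%). Chromosome 35 followed with 31.6%. This count was chosen after the values of the neighbours had been seen, and its cause was not tested.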
